A study of Mus musculus with 15 samples.

Results

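The liver's bile acid genes were examined in RNA sequencing of mouse livers. The group holds 33 genes chosen by symbol for their role, covering the enzymes that make bile acids, the pumps and carriers that move them and the receptors that sense them. All 33 were found among the 56980 Ensembl gene IDs of the deposited count table. The animals were wild-type (WT) male C57Bl/6J mice that entered the diets at 15 weeks of age and ate them for 9 months. The control group was fed 10% fat (labelled Control_ALF), the high-fat group 60% fat (HFD_ALF) and the ketogenic group 89.9% fat (Keto_ALF). The submitters excluded control replicate 1 for contamination, and it was not used, so there were 4 control, 5 high-fat and 5 ketogenic libraries. The labels do not say what ALF means, what else the diets held or at what hour livers were taken. They do not tie libraries to individual animals either, and p-values therefore reflect only sample-to-sample spread, which may be technical. In whole liver, fewer cells of a type and less RNA per cell cannot be told apart.

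Bile acids are made from cholesterol in hepatocytes by a classical pathway, which Cyp7a1 opens, and an alternative pathway, which Cyp27a1 and Cyp7b1 open. They are conjugated, pumped into bile, taken up again in the ileum and returned to the liver by the portal blood. The nuclear receptor FXR, encoded by Nr1h4, senses them and lowers synthesis through the repressor SHP, encoded by Nr0b2, and through the gut hormone Fgf15, which acts on hepatocytes through Fgfr4 and its partner beta-klotho, encoded by Klb.

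Levels are given in CPM, a gene's count divided by its library's total after TMM scaling and brought to a common depth. Tests are edgeR's quasi-likelihood tests over the 14627 genes that passed a filter on low counts, with Benjamini-Hochberg adjustment over all of them and a threshold of 0.05, and each log2 fold change is given ± SE. Total counts ran from 16329425 to 25349148 per library, and the 33 genes took 0.933% to 1.24% of them. Both comparisons with control use the same 4 control libraries. Of the 33 genes 31 were tested, while Slc51a and Gpbar1 were too low.

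Some libraries stood apart. On the first 2 principal components of all genes, ketogenic replicate 5 lay away from the other ketogenic libraries and high-fat replicate 1 nearest to the controls among the high-fat libraries. Control replicate 2 carried 864 counts of 7 intestinal genes, among them Sis (241), Vil1 (210), Lct (154) and Krt20 (145), against 2 to 34 counts in each of the other 13 libraries. The listed intestinal gene Fabp2 was left out of this sum and was called higher in both comparisons with control. With Fabp2 the sum was 113 CPM in control replicate 2 and 26.6 to 59.7 CPM in the other controls. It was 103 to 155 CPM in high-fat and 116 to 162 CPM in ketogenic libraries. The 8 pancreatic acinar genes summed to 1261 CPM in control replicate 2, against 23.9 to 137 CPM in the other controls. The same sum ran from 81.3 to 572 CPM in high-fat libraries, highest in replicate 1, and from 6.85 to 275 CPM in ketogenic libraries, highest in replicate 2. The hepatocyte identity of the tissue was clear, with albumin (Alb) at 105787 ± 12979 CPM in controls. The 8 hepatocyte markers summed to 125774 to 158467 CPM in control libraries, 82897 to 116604 CPM after the high-fat diet and 63036 to 113496 CPM after the ketogenic diet, with ketogenic replicate 5 the lowest of all. Much of this sum was Alb. Without Alb the sums were 28388 to 35799 CPM in controls, 16914 to 29356 CPM in high-fat and 13599 to 28519 CPM in ketogenic libraries. Only high-fat replicate 1 (29356 CPM) and ketogenic replicate 3 (28519 CPM) reached the control range. Every other fat-rich library lay below all controls. Of the 8 hepatocyte markers 0 were called higher and 1 lower in high-fat livers, and 0 and 2 in ketogenic livers. All 8 had log2 fold changes below 0 in both comparisons with control. Their medians were -0.48 in high-fat and -0.54 in ketogenic livers, against 0.01 and 0.03 over all genes. Of 8 stellate cell and fibroblast markers 3 rose in each comparison with control. The 8 summed to 308 to 332 CPM in control, 414 to 536 CPM in high-fat and 353 to 731 CPM in ketogenic libraries. The 731 CPM were in ketogenic replicate 5. Of 8 sinusoidal endothelial markers Kdr fell in high-fat livers and Gpr182 and Kdr in ketogenic livers. Of 8 periportal hepatocyte markers 3 fell in ketogenic livers (Gls2, Sds and Ass1) and 0 in high-fat livers. Of 8 pericentral hepatocyte markers Rhbg alone was called, higher in both comparisons with control. Of 8 Kupffer cell markers Timd4 fell in ketogenic livers and 0 were called in high-fat livers. Their sums were 302 to 477 CPM in control, 370 to 604 CPM in high-fat and 274 to 810 CPM in ketogenic libraries. Ketogenic replicate 5 held the 810 CPM. Of 10 circadian clock genes 9 were tested and 0 were called in any comparison. Of the 9, 8 had log2 fold changes below 0 in each comparison with control. The clock gene Dbp ran from 21.5 to 108 CPM in control, 9.15 to 42.0 CPM in high-fat and 11.1 to 43.5 CPM in ketogenic libraries. Arntl ran from 0.916 to 10.4, 6.36 to 19.9 and 5.94 to 19.5 CPM in that order. Over all genes tested 12.0% were called in high-fat and 12.1% in ketogenic livers. The part of these library and marker differences in the results was not tested.

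After either fat-rich diet some genes of synthesis and of canalicular and basolateral export were higher than in controls, while a hydroxylase and a canalicular flippase were lower. Of the Fgf15 receptor pair, Fgfr4 was called lower only in high-fat and Klb only in ketogenic livers. Neither was called between the 2 fat-rich diets. In high-fat against control livers 6 of the 31 tested genes rose (Cyp8b1, Hsd3b7, Acox2, Abcb4, Abcb1a and Abcc3) and 3 fell (Cyp39a1, Atp8b1 and Fgfr4). Over all genes tested 6.95% rose and 5.01% fell. In ketogenic against control livers 6 rose (Cyp8b1, Hsd3b7, Acox2, Abcb4, Abcb1a and Abcc3) and 3 fell (Cyp39a1, Atp8b1 and Klb), against 7.47% higher and 4.60% lower of all genes. The median log2 fold change of the 31 was 0.04 in high-fat and -0.11 in ketogenic livers, against 0.01 and 0.03 over all genes. Of the 31, 29.0% were called in each of the 2 comparisons, against 12.0% and 12.1% of all genes. The genes were chosen with earlier results of these data known, so these shares are no test of the group. Values of the 2 groups did not overlap for 7 genes higher and 5 lower in high-fat livers (9.45% and 6.79% of all genes, 16.2% together) and for 6 higher and 4 lower in ketogenic livers (7.38% and 5.17%, 12.5% together). With library totals in place of TMM, which moves the median gene by 0.127 in high-fat and 0.177 in ketogenic livers on the log2 scale, 7 rose and 1 fell in high-fat livers and 7 rose and 4 fell in ketogenic livers, while all genes split 1302 higher to 420 lower and 1826 to 368 in place of 1016 to 733 and 1093 to 673. The high-fat count fell from 9 to 5 without control replicate 3, 4 or 5 and to 6 without high-fat replicate 3 or 4, and was 10 without high-fat replicate 1 and 9 without control replicate 2. The ketogenic count was 10 without control replicate 2 and 11 without ketogenic replicate 5.

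**Figure D1:**
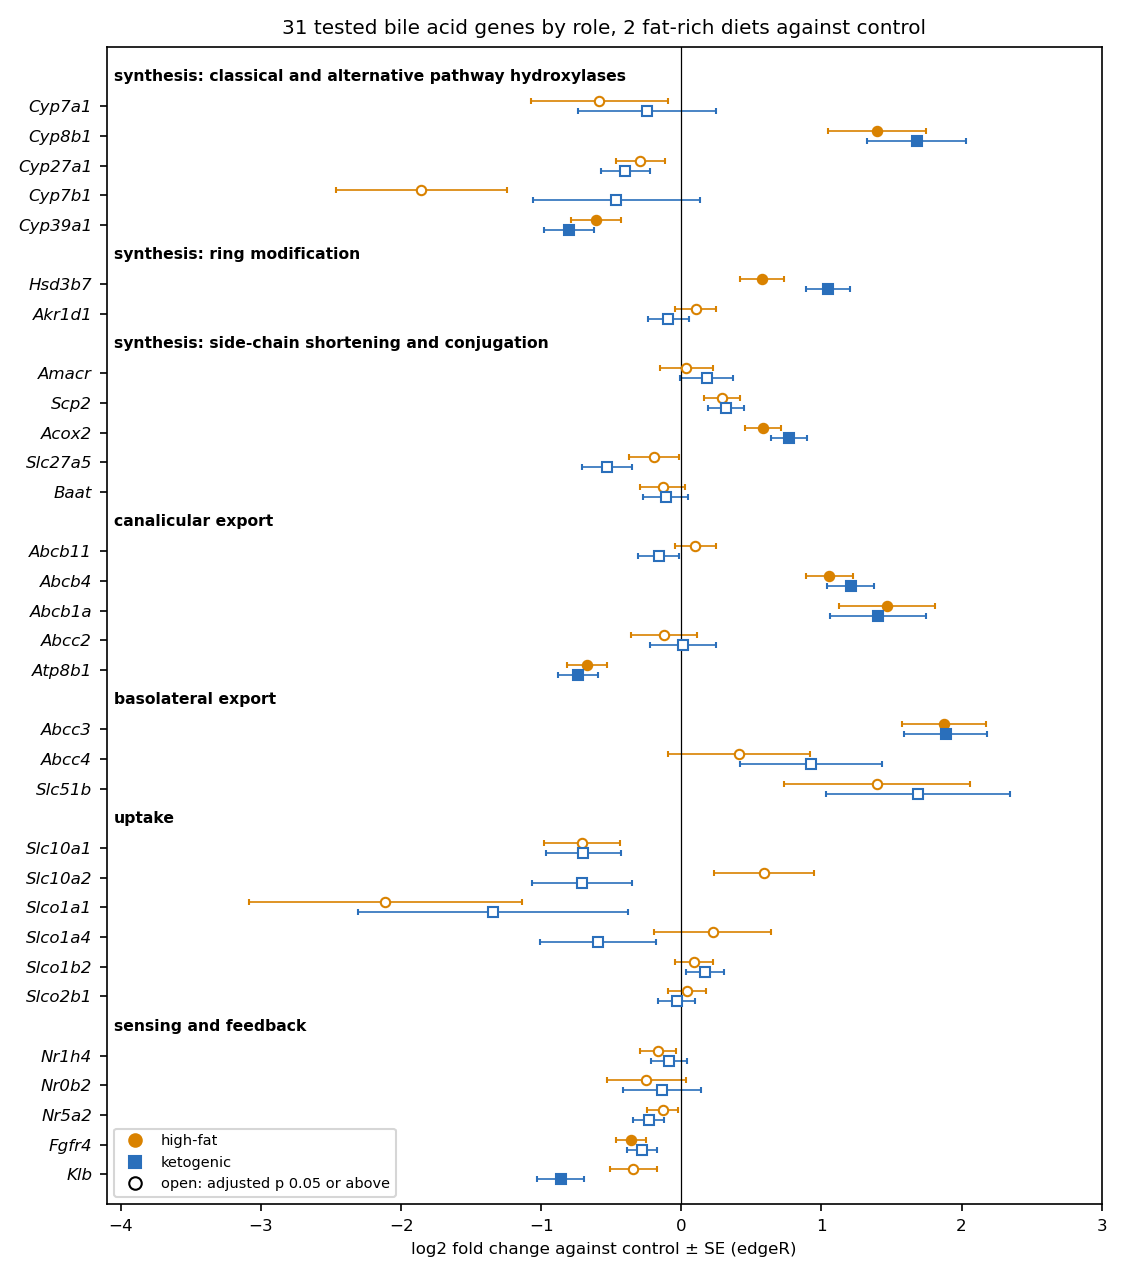
Log2 fold change against control with its SE (x axis) for the 31 tested bile acid genes, grouped by role (y axis), after the high-fat diet (orange circles) and the ketogenic diet (blue squares); filled symbols have an adjusted p under 0.05. Abcc3 lies farthest to the right among the filled symbols, at 1.88 and 1.89, and the widest error bars belong to Slco1a1.

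The enzyme that opens the classical pathway did not pass the test, while the one that turns it toward cholic acid rose. Cyp7a1, the rate-limiting enzyme, was at 161, 299.9, 77.3 and 132 CPM in control replicates 2 to 5, at 256, 109, 72.9, 79.8 and 40.4 CPM in high-fat replicates 1 to 5 and at 75.6, 156, 195, 157 and 122 CPM in ketogenic replicates 1 to 5. The groups overlapped widely, and control replicate 3 was the highest of all 14 libraries. Its log2 fold change was -0.59 ± 0.49 (adjusted p = 0.474) in high-fat and -0.24 ± 0.49 (adjusted p = 0.783) in ketogenic livers. Without high-fat replicate 1, the highest of its group, the high-fat value was -1.15, adjusted p = 0.0729.

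Cyp8b1, the sterol hydroxylase that commits the pathway to cholic acid, was at 222, 138, 109 and 136 CPM in control replicates 2 to 5. It was at 368, 429, 359, 505 and 332 CPM in high-fat replicates 1 to 5 and at 332, 508, 743, 679 and 164 CPM in ketogenic replicates 1 to 5. All 5 high-fat libraries lay above all controls, whereas ketogenic replicate 5 lay within the control range and the other 4 ketogenic libraries above it. The mean was 151 ± 48.7 CPM in controls (SD, n = 4), 398 ± 69.3 CPM after the high-fat diet (2.63-fold, log2 fold change 1.40 ± 0.35, adjusted p = 0.0187) and 485 ± 240.4 CPM after the ketogenic diet (3.20-fold, log2 fold change 1.68 ± 0.35, adjusted p = 0.00646; SD, n = 5 each). The high-fat call was lost without control replicate 3, 4 or 5 and with no filter on low counts (adjusted p from 0.0584 to 0.0706). Without ketogenic replicate 5 the ketogenic value was 1.89, adjusted p = 0.000134.

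The bases before the start of Cyp8b1 are shown because the gene changed and its regulation by the orphan receptor NR5A2, itself one of the 33 genes, is well known. RefSeq's promoter table (GRCm38.p6, an earlier build than the GRCm39 of the counts) matched 25 of the 33 genes, and the 250 bases before the start are printed 5′ to 3′. Capitals mark matches, on either strand, to an NR5A2-type letter pattern, CAAGGNCA, or to AGGTCA hexamers, the core that nuclear receptors bind, alone or paired as AGGTCANTGACCT (an inverted repeat, the FXR type), AGGTCANAGGTCA (a direct repeat, the PPAR type) or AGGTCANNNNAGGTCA, the paired patterns with up to 2 mismatches. The window of Cyp8b1 lies at chr9:121916306-121916555 on the minus strand and holds CAAGGGCA, which starts 60 bases before the gene start.
Cyp8b1: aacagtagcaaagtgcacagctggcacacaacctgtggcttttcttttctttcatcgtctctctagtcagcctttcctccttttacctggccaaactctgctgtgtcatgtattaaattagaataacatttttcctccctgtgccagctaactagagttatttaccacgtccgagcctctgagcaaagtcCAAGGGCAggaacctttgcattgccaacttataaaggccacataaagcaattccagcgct

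Matches were counted in windows that also hold the 50 bases after the start. A gene was counted if any of its windows matched, and some genes have several. The shares of all windows count each window by itself, so the 2 are not on the same footing. CAAGGNCA was found in 3 of the 25 genes with an entry (Cyp8b1, Nr0b2 and Slc51a) and in 6.71% of all 32851 promoter windows. AGGTCA, which overlaps the paired patterns, was found in 11 of the 25 and in 16.3% of all windows. The direct repeat AGGTCANAGGTCA was found in Acox2, Nr1h4 and Slco1a1, and in 3.86% of all windows; in Acox2 the match AGGACAGAGGTGA starts 9 bases after the later of 2 listed starts. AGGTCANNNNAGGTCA was found in Slc51b alone, and in 3.02% of all windows. These are matches of letters and no measure of binding.

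Of the alternative pathway's enzymes 1 fell and the others did not pass. Cyp39a1, a hydroxylase of oxysterols, was at 39.2, 51.3, 44.05 and 47.2 CPM in control replicates 2 to 5, at 29.8, 37.1, 21.7, 26.6 and 33.9 CPM in high-fat and at 28.7, 33.1, 17.9, 28.5 and 22.004 CPM in ketogenic replicates 1 to 5. Every library of both fat-rich diets lay below every control. Its log2 fold change was -0.61 ± 0.18 (adjusted p = 0.0346) in high-fat and -0.80 ± 0.18 (adjusted p = 0.00750) in ketogenic livers, 1.52-fold and 1.74-fold lower. The high-fat call was lost with library totals, or when control replicate 3, 4 or 5 or high-fat replicate 3 or 4 was left out (adjusted p from 0.0767 to 0.110).

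Cyp7b1, the oxysterol hydroxylase of the alternative pathway and a gene with higher levels in male than in female mouse liver, was at 393, 456, 334 and 195 CPM in control replicates 2 to 5. It was at 193, 49.7, 72.8, 102 and 58.2 CPM in high-fat replicates 1 to 5 and at 114, 257, 459, 383 and 37.8 CPM in ketogenic replicates 1 to 5. All high-fat libraries lay below all controls, with replicate 1 closest to them, while ketogenic libraries ran from 37.8 to 459 CPM across the range of both other groups, replicate 5 the lowest. The high-fat difference missed the threshold (log2 fold change -1.85 ± 0.61, adjusted p = 0.0666). It was past it with DESeq2 (adjusted p = 0.0236), with the 2 diets alone in the fit (adjusted p = 0.0214) and without high-fat replicate 1 (-2.28, adjusted p = 0.0281). The ketogenic difference from control was -0.46 ± 0.60 (adjusted p = 0.651).

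Cyp27a1, which oxidizes the sterol side chain and opens the alternative pathway, was at 599, 504, 499.5 and 602 CPM in control replicates 2 to 5, at 611, 408, 379, 439 and 412 CPM in high-fat and at 325, 377, 577, 454 and 354 CPM in ketogenic replicates 1 to 5. High-fat replicate 1 lay above all controls and the other 4 high-fat libraries below them. It did not pass in high-fat (log2 fold change -0.29 ± 0.18, adjusted p = 0.297) or ketogenic livers (log2 fold change -0.40 ± 0.18, adjusted p = 0.149), and passed in the latter without ketogenic replicate 3 (-0.55, adjusted p = 0.0312). Per kb of annotated exon, the only scale on which genes are compared here, the control level was highest for Cyp27a1 at 254 CPM per kb, followed by Cyp7b1 at 159, Cyp8b1 at 77.6, Cyp7a1 at 40.1 and Cyp39a1 at 14.9. After the high-fat diet Cyp8b1 (204 CPM per kb) stood beside Cyp27a1 (207), and Cyp7b1 had 44.005; after the ketogenic diet the values were 249, 192 and 115.

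Among the later enzymes, those of the sterol ring and of peroxisomal side-chain oxidation held 1 called gene each. Hsd3b7, which oxidizes and isomerizes the sterol ring in both pathways, was at 49.8, 30.6, 31.3 and 31.1 CPM in control replicates 2 to 5, at 47.6, 45.7, 59.2, 58.3 and 54.7 CPM in high-fat and at 71.8, 84.8, 65.99, 85.2 and 60.8 CPM in ketogenic replicates 1 to 5. Control replicate 2 stood above the other 3 controls and within the high-fat range, and every ketogenic library lay above every control and every high-fat library. The rise was 1.49-fold in high-fat (log2 fold change 0.57 ± 0.16, adjusted p = 0.0271) and 2.07-fold in ketogenic livers (log2 fold change 1.05 ± 0.16, adjusted p = 0.000505). Without control replicate 2 the values were 0.77, adjusted p = 0.00275, and 1.25, adjusted p = 9.21e-05. The high-fat call was lost when control or high-fat replicate 3, 4 or 5 was left out (adjusted p from 0.0555 to 0.0977). Akr1d1, the reductase that follows, ran from 175 to 229 CPM in control, 158 to 239.6 CPM after the high-fat and 142 to 214 CPM after the ketogenic diet and did not pass.

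Acox2, the peroxisomal oxidase that starts the shortening of the side chain, was at 135, 97.8, 131 and 139.8 CPM in control replicates 2 to 5, at 203, 184, 155, 207 and 195 CPM in high-fat and at 208, 227, 222, 234 and 180.4 CPM in ketogenic replicates 1 to 5. All libraries of both fat-rich diets lay above all controls. The rise was 1.501-fold in high-fat (log2 fold change 0.59 ± 0.13, adjusted p = 0.00801) and 1.70-fold in ketogenic livers (log2 fold change 0.77 ± 0.13, adjusted p = 0.00105), and both calls held in all 17 alternatives run for each comparison. Scp2, a sterol carrier and peroxisomal thiolase, ran from 3247 to 3538 CPM in control, 3823 to 4656 CPM after the high-fat and 3579 to 4853 CPM after the ketogenic diet, without overlap with controls, and was 0.29 ± 0.13 (adjusted p = 0.156) and 0.32 ± 0.13 (adjusted p = 0.119) on the log2 scale; it passed with library totals (adjusted p = 0.00708 and 0.00226). Per kb it had the highest control level of all 33 genes, at 974 CPM per kb.

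No conjugation gene passed the test. Slc27a5, the ligase that activates bile acids with coenzyme A, ran from 1032 to 1183 CPM in control, 793 to 1218 CPM after the high-fat and 568 to 1047 CPM after the ketogenic diet. Its ketogenic log2 fold change of -0.53 ± 0.18 (adjusted p = 0.0647) missed the threshold and passed with DESeq2 (adjusted p = 0.0282), with library totals (adjusted p = 0.0429) and without ketogenic replicate 3 (adjusted p = 0.0150). Baat, which joins bile acids to taurine or glycine, was -0.13 ± 0.16 (adjusted p = 0.631) and -0.11 ± 0.16 (adjusted p = 0.681), and Amacr, a racemase of the side chain, 0.04 ± 0.19 (adjusted p = 0.925) and 0.18 ± 0.19 (adjusted p = 0.563), in high-fat and ketogenic livers in that order.

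**Figure D2:**
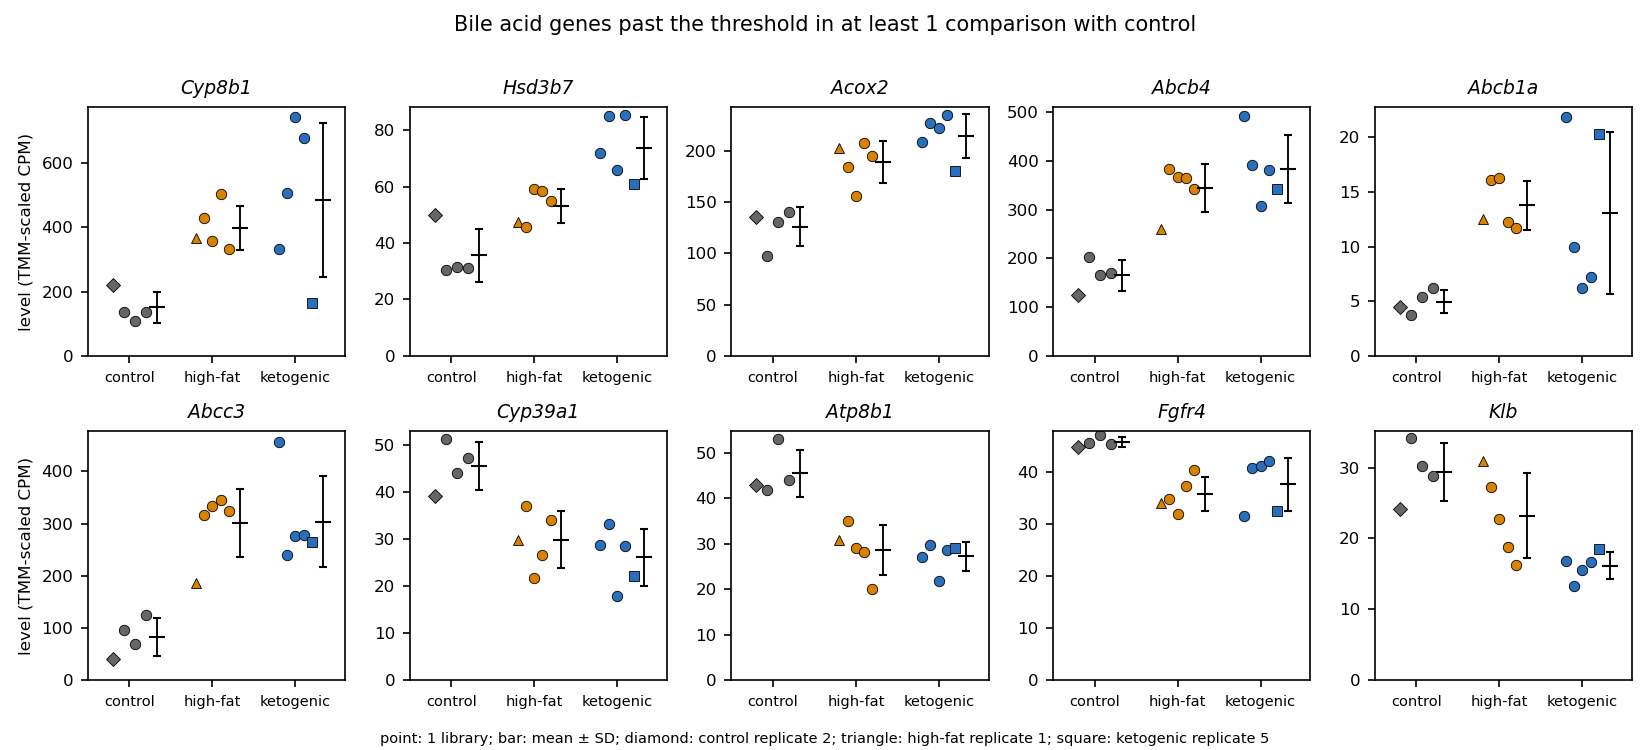
Level in CPM (y axis, from 0) of the 10 bile acid genes called in at least 1 comparison with control, by diet (x axis), 1 point per library with mean ± SD beside them; a diamond marks control replicate 2, a triangle high-fat replicate 1 and a square ketogenic replicate 5. Controls of Abcc3, Abcb4 and Acox2 lie below all other libraries, and the ketogenic square of Cyp8b1, at 164 CPM, lies among the controls.

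At the canalicular membrane, where hepatocytes meet bile, the phospholipid pump Abcb4 and the drug pump Abcb1a rose and 1 flippase fell. The bile salt pump itself did not pass. Abcb4, which moves phosphatidylcholine into bile, was at 124, 202, 166 and 170.1 CPM in control replicates 2 to 5, at 261, 384, 368, 366 and 343 CPM in high-fat and at 492, 392, 307, 382 and 343 CPM in ketogenic replicates 1 to 5. No fat-rich library reached down to the controls. The rise was 2.08-fold in high-fat (log2 fold change 1.05 ± 0.17, adjusted p = 0.000988) and 2.31-fold in ketogenic livers (log2 fold change 1.21 ± 0.17, adjusted p = 0.000270).

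Abcb1a, a pump for drugs and other lipophilic compounds, was at 4.47, 3.77, 5.43 and 6.22 CPM in control replicates 2 to 5, at 12.5, 16.1, 16.3, 12.2 and 11.7 CPM in high-fat and at 21.9, 9.998, 6.23, 7.21 and 20.2 CPM in ketogenic replicates 1 to 5. Ketogenic replicates 1 and 5 were the highest of all libraries, and the lowest ketogenic library, replicate 3, lay just above the highest control. The rise was 2.77-fold in high-fat (log2 fold change 1.47 ± 0.34, adjusted p = 0.0128) and 2.64-fold in ketogenic livers (log2 fold change 1.40 ± 0.34, adjusted p = 0.0148). The ketogenic call was lost without control replicate 3 (1.28, adjusted p = 0.0537) and with the replicate number as a block (1.19, adjusted p = 0.0509). Abcb1a has a close copy, Abcb1b, at 2.54 ± 0.875 CPM in controls, and the counting of reads that match both is not stated. Abcb1b did not pass in high-fat (log2 fold change -0.39 ± 0.41, adjusted p = 0.575) or ketogenic livers (log2 fold change -0.57 ± 0.41, adjusted p = 0.384).

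Atp8b1, a flippase that keeps the canalicular membrane stable, was at 43.04, 41.8, 53.2 and 44.1 CPM in control replicates 2 to 5, at 30.8, 35.1, 29.04, 28.2 and 19.9 CPM in high-fat and at 26.99, 29.8, 21.9, 28.6 and 28.997 CPM in ketogenic replicates 1 to 5. All fat-rich libraries lay below all controls. The fall was 1.59-fold in high-fat (log2 fold change -0.67 ± 0.14, adjusted p = 0.00688) and 1.67-fold in ketogenic livers (log2 fold change -0.74 ± 0.14, adjusted p = 0.00311). Tmem30a, the subunit that flippases of this kind need, fell too, from 182 ± 5.65 to 143 ± 12.3 CPM in high-fat (log2 fold change -0.35 ± 0.10, adjusted p = 0.0333) and 143 ± 14.2 CPM in ketogenic livers (log2 fold change -0.35 ± 0.10, adjusted p = 0.0330).

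Abcb11, the bile salt export pump and a classic FXR target, was at 303, 349, 319.7 and 317 CPM in control replicates 2 to 5, at 343, 387, 311, 334 and 349 CPM in high-fat and at 321, 269.9, 199.6, 275 and 373 CPM in ketogenic replicates 1 to 5. The groups overlapped, with the widest spread among ketogenic libraries, and it did not pass in high-fat (log2 fold change 0.10 ± 0.15, adjusted p = 0.709) or ketogenic livers (log2 fold change -0.16 ± 0.15, adjusted p = 0.497). Its promoter window at chr2:69342617-69342866, minus strand, is printed because it holds the FXR-type inverted repeat. The match with 1 mismatch, AGGCCATTGACCT, starts 63 bases before the gene start, and another with 2 mismatches lies before it.
Abcb11: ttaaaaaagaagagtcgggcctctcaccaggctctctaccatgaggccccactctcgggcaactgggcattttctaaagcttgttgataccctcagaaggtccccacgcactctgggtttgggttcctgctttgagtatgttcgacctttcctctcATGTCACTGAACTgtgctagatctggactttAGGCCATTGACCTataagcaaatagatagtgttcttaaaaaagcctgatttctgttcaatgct

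The inverted repeat AGGTCANTGACCT was found in 2 of the 25 genes with a promoter entry, Abcb11 and Slco1b2, and in 1.14% of all windows. Abcc2, which exports conjugated bilirubin and sulfated or glucuronidated bile acids, ran from 264 to 643 CPM in control, 350.0 to 534 CPM after the high-fat and 396 to 737 CPM after the ketogenic diet and did not pass.

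On the basolateral side, which faces the blood, Abcc3 had the largest called rise of the 33 genes in each comparison with control. Abcc3, an exporter of bile acid conjugates back to blood, was at 39.4, 96.1, 68.4 and 124 CPM in control replicates 2 to 5, at 186, 317, 334, 344 and 324 CPM in high-fat and at 457, 240.0, 277, 277 and 265 CPM in ketogenic replicates 1 to 5. High-fat replicate 1 was the lowest and ketogenic replicate 1 the highest of the fat-rich libraries, and all lay above the controls. The mean went from 82.02 ± 36.4 CPM to 301 ± 65.4 CPM in high-fat (3.67-fold, log2 fold change 1.88 ± 0.30, adjusted p = 0.00109) and 303 ± 87.2 CPM in ketogenic livers (3.70-fold, log2 fold change 1.89 ± 0.30, adjusted p = 0.000743). The calls on Abcc3 and Abcb4 held in all 17 alternatives run for each comparison.

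The other basolateral exporters were low. Abcc4, an exporter induced in cholestasis, ran from 2.38 to 3.23 CPM in control and 3.01 to 4.58 in high-fat libraries, and was at 13.4, 3.38, 1.89, 1.42 and 8.24 CPM in ketogenic replicates 1 to 5. Ketogenic replicates 1 and 5 were again the high ones and replicates 3 and 4 lay below all controls, and the gene did not pass (log2 fold change 0.93 ± 0.51, adjusted p = 0.252). The organic solute transporter, a pair of Slc51a and Slc51b, is strongest in the intestine. Slc51a had 21 counts over all 14 libraries, 13 of them in control replicate 2, and Slc51b had 12 counts in control replicate 2 against 2, 3 and 1 in the other controls. Control replicate 2 is the library with the 864 counts of intestinal genes. Slc51b was 1.40 ± 0.67 (adjusted p = 0.187) in high-fat and 1.69 ± 0.65 (adjusted p = 0.106) in ketogenic livers with all libraries, and passed without control replicate 2 (2.56, adjusted p = 0.0323, and 2.86, adjusted p = 0.0158). The intestinal hormone Fgf15 and the ileal bile acid binding protein Fabp6 had 0 counts in all 14 libraries, which allows up to 0.0104 CPM by a limit of 3 counts over their total.

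No uptake carrier passed the test, although some had wide or separated values. Slc10a1, the main sodium-dependent carrier of conjugated bile acids, was at 702, 1035, 784 and 982 CPM in control replicates 2 to 5, at 784, 507, 472, 555 and 359 CPM in high-fat and at 411, 653, 743, 627 and 262 CPM in ketogenic replicates 1 to 5. Its log2 fold change was -0.71 ± 0.27 (adjusted p = 0.0985) in high-fat and -0.70 ± 0.27 (adjusted p = 0.104) in ketogenic livers. The lowest control lay above 4 of the 5 libraries of each fat-rich diet. The high-fat difference passed without high-fat replicate 1 (-0.89, adjusted p = 0.0376) and with the 2 diets alone in the fit (adjusted p = 0.0235).

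Slco1a1, an organic anion carrier with higher levels in male than in female mouse liver, was at 442, 669.6, 536 and 619 CPM in control replicates 2 to 5, at 368, 36.6, 111, 125 and 15.97 CPM in high-fat and at 71.7, 184, 369, 483 and 8.75 CPM in ketogenic replicates 1 to 5. All high-fat libraries lay below all controls. Within each fat-rich diet its libraries differed widely, with high-fat replicate 1 and ketogenic replicates 3 and 4 high and ketogenic replicate 5 lowest, and it did not pass (-2.11 ± 0.98, adjusted p = 0.185, and -1.34 ± 0.96, adjusted p = 0.390). For Cyp7b1, too, high-fat replicate 1 and ketogenic replicates 3 and 4 were the highest of their groups and ketogenic replicate 5 the lowest. Slco1a4, a related carrier, was at 32.2, 22.5, 18.4, 21.1 and 71.1 CPM in ketogenic replicates 1 to 5, with replicate 5 the highest, against 29.1 to 65.3 CPM in controls and 31.5 to 84.1 CPM in high-fat libraries. Its ketogenic log2 fold change of -0.60 ± 0.42 (adjusted p = 0.373) passed without ketogenic replicate 5 (-1.11, adjusted p = 0.0457). Slco1b2 and Slco2b1 had log2 fold changes between -0.03 and 0.17 in both comparisons with control. The counting of reads shared among the similar Slco1a genes is not stated.

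Slc10a2, the sodium-dependent carrier of the ileum that bile duct cells also make, was at 41.4, 28.8, 42.4 and 43.1 CPM in control replicates 2 to 5, at 68.7, 81.2, 45.6, 47.4 and 49.9 CPM in high-fat and at 27.8, 21.6, 12.2, 10.7 and 46.6 CPM in ketogenic replicates 1 to 5. High-fat libraries lay above all controls and 4 of 5 ketogenic libraries below them, with ketogenic replicate 5 above. Neither comparison with control passed (0.59 ± 0.36, adjusted p = 0.309, and -0.71 ± 0.36, adjusted p = 0.212). The high-fat one passed with the 2 diets alone in the fit (0.57, adjusted p = 0.0488), and the ketogenic one without ketogenic replicate 5 (-1.13, adjusted p = 0.0178). The 10 bile duct markers summed to 42.0 to 65.8 CPM in control, 75.4 to 109.5 CPM after the high-fat diet and 53.8 to 224 CPM after the ketogenic diet, the 224 in ketogenic replicate 5, and without Spp1, which other cells also make, to 20.7 to 44.0, 26.9 to 39.3 and 28.2 to 42.0 CPM. Of the 10, 7 were tested and 0 were called in any comparison. Their part in the values of Slc10a2 was not tested. In control replicate 2, which held the intestinal transcripts, Slc10a2 was within the range of the other controls.

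**Figure D3:**
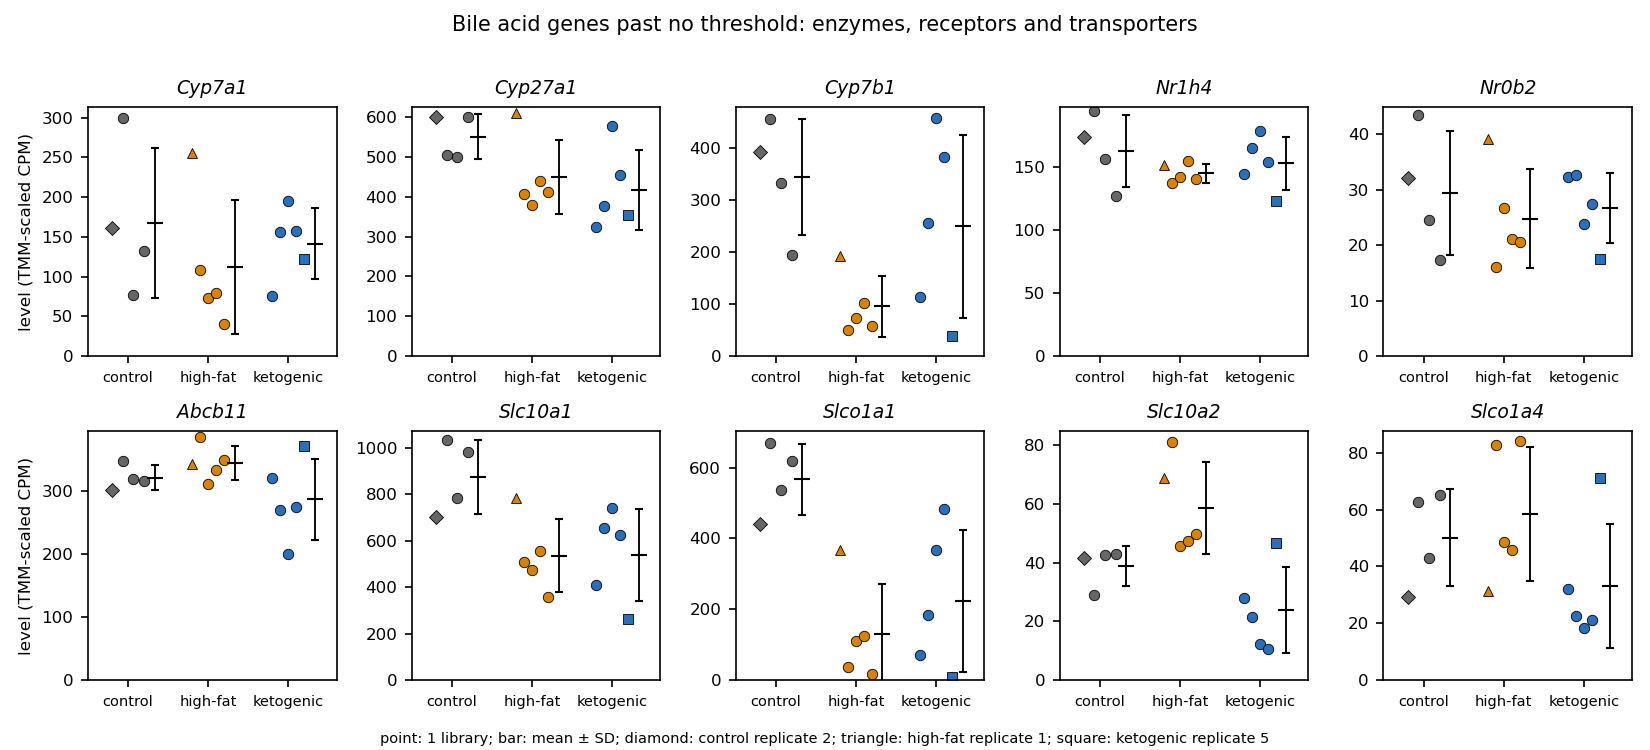
Level in CPM (y axis, from 0) of 10 bile acid genes that passed in no comparison, by diet (x axis), 1 point per library with mean ± SD beside them; a diamond marks control replicate 2, a triangle high-fat replicate 1 and a square ketogenic replicate 5. High-fat replicate 1 is the top high-fat library for Cyp7a1, Cyp7b1 and Slco1a1, and ketogenic replicate 5 the lowest ketogenic one for Cyp7b1, Slc10a1 and Slco1a1.

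No nuclear receptor of the group passed the test. Of the receptor pair for Fgf15, Fgfr4 was called lower in high-fat and Klb in ketogenic livers. Neither was called in both comparisons with control or between the fat-rich diets. Nr1h4, which encodes FXR, was at 174, 195, 156 and 127 CPM in control replicates 2 to 5, at 152, 137, 142, 155 and 141 CPM in high-fat and at 145, 165, 179, 154 and 123 CPM in ketogenic replicates 1 to 5. The groups overlapped, and its log2 fold change was -0.17 ± 0.13 (adjusted p = 0.434) and -0.09 ± 0.13 (adjusted p = 0.690). Nr5a2, an activator of Cyp7a1 and Cyp8b1 in textbook schemes, was -0.13 ± 0.11 (adjusted p = 0.469) and -0.23 ± 0.11 (adjusted p = 0.181).

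Nr0b2, which encodes the repressor SHP, was at 32.2, 43.6, 24.5 and 17.4 CPM in control replicates 2 to 5, at 39.2, 16.1, 26.8, 21.1 and 20.6 CPM in high-fat and at 32.3, 32.7, 23.7, 27.5 and 17.6 CPM in ketogenic replicates 1 to 5. The 4 controls spanned the values of all other libraries except high-fat replicate 2, and the gene did not pass (-0.25 ± 0.28, adjusted p = 0.605 in high-fat, and -0.14 ± 0.28, adjusted p = 0.788 in ketogenic livers). Its window, chr4:133553126-133553375 on the plus strand, is shown beside that of Cyp8b1 because both carry the NR5A2-type letters, here CAAGGCCA from 201 bases before the gene start.
Nr0b2: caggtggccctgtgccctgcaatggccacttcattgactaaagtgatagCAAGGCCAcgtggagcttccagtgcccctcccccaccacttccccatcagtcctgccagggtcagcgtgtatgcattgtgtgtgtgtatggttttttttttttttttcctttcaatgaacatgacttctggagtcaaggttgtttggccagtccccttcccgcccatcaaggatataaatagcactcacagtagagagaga

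Fgfr4, the hepatocyte receptor of Fgf15, was at 44.9, 45.6, 47.2 and 45.5 CPM in control replicates 2 to 5, at 34.1, 34.8, 31.95, 37.4 and 40.4 CPM in high-fat and at 31.5, 40.8, 41.3, 42.1 and 32.6 CPM in ketogenic replicates 1 to 5. The controls lay close together and above all fat-rich libraries. The fall was 1.28-fold in high-fat livers (log2 fold change -0.36 ± 0.11, adjusted p = 0.0405), a call kept in 5 of 17 alternatives and lost in the other 12 with adjusted p from 0.0568 to 0.111, and the ketogenic difference did not pass (log2 fold change -0.28 ± 0.11, adjusted p = 0.0991). Between ketogenic and high-fat livers Fgfr4 differed by 0.07 ± 0.10 on the log2 scale (adjusted p = 0.925) and did not pass.

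Klb, the partner that Fgfr4 needs to bind Fgf15 and that also serves the fasting hormone Fgf21, was at 24.2, 34.2, 30.3 and 28.9 CPM in control replicates 2 to 5, at 30.98, 27.3, 22.7, 18.7 and 16.3 CPM in high-fat and at 16.8, 13.3, 15.6, 16.7 and 18.5 CPM in ketogenic replicates 1 to 5. All ketogenic libraries lay below all controls, while high-fat libraries spread over both ranges. The fall was 1.82-fold in ketogenic livers (log2 fold change -0.86 ± 0.17, adjusted p = 0.00349), called in all 17 alternatives, and the high-fat difference did not pass (log2 fold change -0.34 ± 0.17, adjusted p = 0.201). The direct difference between the fat-rich diets was -0.52 ± 0.16 (adjusted p = 0.278) and did not pass. Gpbar1, a membrane receptor for bile acids found on other liver cells than hepatocytes, had 1 count in controls, 1 in high-fat and 0 in ketogenic libraries, the last allowing up to 0.0266 CPM by a limit of 3 counts over the group.

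Ketogenic and high-fat livers were then compared directly, with 0 of the 31 genes past the threshold in edgeR's test, 4 at an unadjusted p under 0.05 (Cyp7b1, Hsd3b7, Slc10a2 and Klb; 8.70% of all genes tested) and 1 in DESeq2 (Slc10a2, adjusted p = 0.00713). Over all genes tested 0.0615% were called, 0.00684% higher and 0.0547% lower in ketogenic livers. Slc10a2 differed by -1.30 ± 0.34 (adjusted p = 0.196) on the log2 scale, and without ketogenic replicate 5 the value was -1.70, adjusted p = 0.00680. Hsd3b7 was the only 1 of the 31 whose values in the 2 groups did not overlap, from 45.7 to 59.2 CPM after the high-fat diet and from 60.8 to 85.2 CPM after the ketogenic diet (log2 fold change 0.47 ± 0.15, adjusted p = 0.280), against 1.76% of all genes (0.875% higher and 0.889% lower). Cyp7b1 was 1.39 ± 0.58 (adjusted p = 0.509). When high-fat replicate 1 and ketogenic replicate 5 were both left out, a choice made after seeing the data, 3 genes were called: Cyp7b1 was higher in ketogenic livers (2.10, adjusted p = 0.0182) and Slc10a2 (-1.63, adjusted p = 0.00894) and Slco1a4 (-1.47, adjusted p = 0.0135) lower. The same omission raises the calls over all genes from 9 to 636. For Abcc3, Abcb4, Acox2 and Cyp8b1 the direct difference was 0.01 ± 0.27 (adjusted p = 0.995), 0.15 ± 0.15 (adjusted p = 0.872), 0.18 ± 0.12 (adjusted p = 0.728) and 0.28 ± 0.32 (adjusted p = 0.899).

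**Figure D4:**
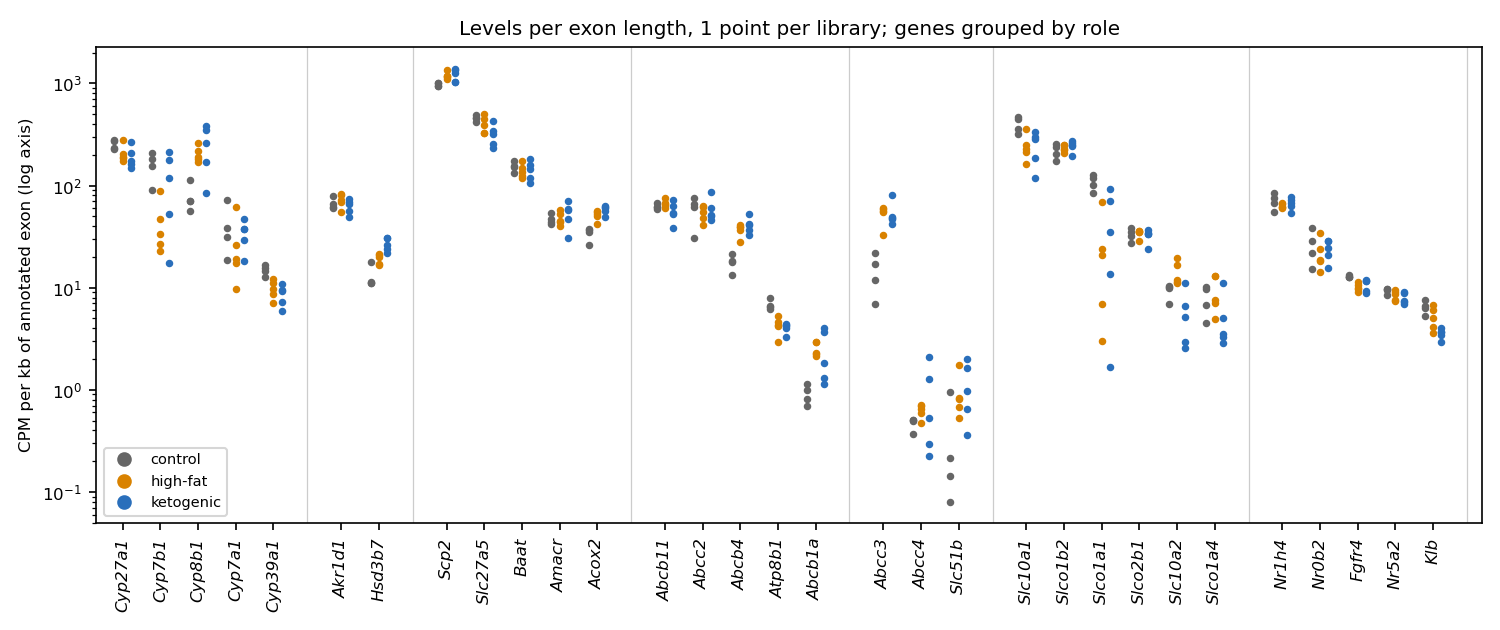
Level per kb of annotated exon in CPM (y axis, log scale) of the 31 tested bile acid genes (x axis, grouped by role), 1 point per library, control in grey, high-fat in orange and ketogenic in blue. Scp2, Slc27a5 and Slc10a1 lead their neighbours, at 974, 456 and 398 CPM per kb in controls, and the points of Slco1a1 and Cyp7b1 are widely spread within the fat-rich diets.

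Other genes of the pathway were read from 3 further lists. Of 15 other enzymes of synthesis, hydroxylation and detoxification 14 were tested. In high-fat livers 5 rose and 2 fell, and in ketogenic livers 5 rose and 1 fell. These calls were 50% and 42.9% of the 14, against 12.0% and 12.1% of all genes. Because the list was chosen with earlier results of these data known, these shares are no test of it. The median log2 fold change of the 14 was 0.43 and 0.48. Hsd17b4, the peroxisomal enzyme that follows Acox2, rose (0.86 ± 0.12, adjusted p = 0.000449 in high-fat, and 0.97 ± 0.12, adjusted p = 0.000127 in ketogenic livers), as did Ephx1, an epoxide hydrolase (from 186 ± 10.5 CPM in control to 324 ± 64.4 in high-fat and 371 ± 61.2 CPM in ketogenic livers, adjusted p = 0.00368 and 0.000612). Acot8, a peroxisomal thioesterase, rose too (0.57 ± 0.15, adjusted p = 0.0207 in high-fat, and 0.76 ± 0.15, adjusted p = 0.00328 in ketogenic livers), and Akr1c14, a hydroxysteroid dehydrogenase, fell in high-fat livers (-0.72 ± 0.18, adjusted p = 0.0160). Cyp2c70, the enzyme with which mice turn chenodeoxycholic acid into muricholic acids, was at 868 ± 314 CPM in control, 322 ± 84.5 CPM in high-fat and 269 ± 166 CPM in ketogenic libraries and fell in both comparisons (-1.43 ± 0.39, adjusted p = 0.0288, and -1.69 ± 0.39, adjusted p = 0.0120). Cyp2c70 was chosen from its list after its values were seen.

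Of 15 other transporters and canalicular membrane genes 13 were tested, and 1 rose and 1 fell in each comparison with control, with medians of -0.03 and -0.04. These calls were 15.4% of the 13 in each comparison, near the 12.0% and 12.1% of all genes. Abcg2, an efflux pump, rose (0.58 ± 0.15, adjusted p = 0.0211, and 1.05 ± 0.15, adjusted p = 0.000355) and Tmem30a fell, as above. Of 14 other receptors and regulators 12 were tested, 2 rose in high-fat and 1 in ketogenic livers, with medians of -0.01 and -0.06. These calls were 16.7% and 8.33% of the 12, also near the shares of all genes. Nr1i3, the receptor CAR, which regulates Abcc3 among other detoxification genes, was at 144 ± 18.4 CPM in control, 248 ± 53.4 CPM in high-fat (log2 fold change 0.79 ± 0.21, adjusted p = 0.0219) and 392 ± 98.6 CPM in ketogenic libraries (log2 fold change 1.44 ± 0.21, adjusted p = 0.000377). S1pr2, a membrane receptor that conjugated bile acids can activate, rose in high-fat livers (1.12 ± 0.29, adjusted p = 0.0216). In ketogenic against high-fat livers 0 of these 39 tested genes passed, against 0.0615% of all genes.

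Within diets, 6 pairs of genes were examined for joint variation of their log2(CPM + 0.5) values around the diet means over the 14 libraries, with permutation within diets. No pair passed after adjustment over the 6. Nr0b2 with Cyp7a1, repressor and target in the textbook scheme, gave Pearson's r = 0.481 (permutation p = 0.134, adjusted p = 0.511) and Spearman's rho = 0.420 (permutation p = 0.180, adjusted p = 0.541). The sign rested on 2 libraries: without high-fat replicate 1 and control replicate 3, r was -0.144. Cyp7a1 with Cyp8b1 gave r = 0.318 (permutation p = 0.180, adjusted p = 0.511) and rho = 0.547 (permutation p = 0.0362, adjusted p = 0.217), and r = 0.438 without high-fat replicates 1 and 5. Dbp, a clock output gene, with Cyp7a1 gave r = 0.376 (permutation p = 0.255, adjusted p = 0.511) and rho = 0.349 (permutation p = 0.288, adjusted p = 0.575), and r = 0.267 without high-fat replicate 5 and control replicate 2. Among the 9 libraries with numbers from 13 up in their titles, r was 0.662, 0.435 and 0.789 for these 3 pairs. Pairs of Nr0b2 with Cyp8b1, Slc51b and Abcb11 gave r = 0.235, -0.129 and -0.152, with adjusted permutation p of 0.598, 0.675 and 0.675.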

How the data were processed

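Poly(A) RNA of liver was sequenced from directional libraries, per the labels' protocols. The deposited table holds raw read counts per Ensembl gene, 56980 in all, made by the authors. The submitters' processing notes name GRCm39, cutadapt 1.16, STAR 2.7.9a, featureCounts 1.6 and DESeq2 1.36.0. The annotation release, the strand setting and the handling of reads with several matches are not stated in these sources, so overlapping and antisense genes cannot be told apart.

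Gene IDs were matched to GENCODE vM21 names (91.4% of IDs). Of 15 libraries 14 were used. Genes were kept with filterByExpr (minimum count 10, total 15), scaled by TMM and tested with edgeR 4.0.16 (robust quasi-likelihood fit, two-sided, R 4.3.3) in 1 fit of 3 diets. The SE is the log2 fold change divided by the root of its F statistic. The code was tested on simulated counts. Alternatives were other scalings, no filter, DESeq2 1.42.0, fits of only the diets compared, the replicate number or library number as a term and leaving out libraries.

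The genes and lists were chosen with earlier results of these data known, and the promoter patterns after results were seen. Values in every library are given for genes past the threshold in any comparison and for 10 genes central to the pathway, with some others described after their values were seen; up to 3 genes of each further list with the smallest adjusted p per comparison are named.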

Additional observations from a re-analysis of the deposited data

Results flagged for a closer look

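Within diets, 11 of the 93 groups of values (31 genes by 3 diets) held 1 library whose gap to its nearest neighbour was large against the whole range by Dixon's test; chance gives about 1 in 20. In controls, replicate 2 was highest for Hsd3b7 (49.77 CPM, others 30.59 to 31.34) and Slc51b (0.6787, others 0.0571 to 0.1537) and lowest for Abcc4 (2.375, others 3.156 to 3.227), and replicate 3 was lowest for Slc10a2 (28.81, others 41.4 to 43.05). In high-fat libraries, replicate 1 was lowest for Abcc3 (185.6, others 316.9 to 344.3) and highest for Cyp27a1 (610.9, others 379 to 439.4), and replicate 5 was highest for Slc51b (1.243, others 0.3759 to 0.5925) and lowest for Slco2b1 (171.1, others 207.4 to 215.5). In ketogenic libraries, replicate 1 was highest for Abcc3 (456.8, others 240 to 277.2), and replicate 5 was highest for Slco1a4 (71.06, others 18.44 to 32.17) and lowest for Slco2b1 (143.5, others 199.5 to 219.3).

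Control replicate 1, left out of all comparisons as contaminated, lay above all other controls for 9 of the 31 tested genes, below them for 6 and within their range for 16. Cyp8b1 was at 309 CPM there, against 109 to 222 in the other controls, and Abcc3 at 141 against 39.4 to 124. Abcb4 (224, others up to 202) and Abcb1a (9.58, others up to 6.22) were also higher there. Atp8b1 (32.2, others from 41.8) and Fgfr4 (41.2, others from 44.9) were lower. The values of Abcb1a and Fgfr4 lay within the ketogenic range and that of Atp8b1 within the high-fat range. Klb went the other way (35.2, others up to 34.2), and Hsd3b7, Acox2 and Cyp39a1 lay within the other controls.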

How the results depend on the processing

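No called direction reversed in any alternative run. Of the bile acid genes called, Abcb4, Abcc3, Acox2, Abcb1a and Atp8b1 in high-fat livers and Abcb4, Abcc3, Acox2, Atp8b1, Cyp39a1, Cyp8b1, Hsd3b7 and Klb in ketogenic livers passed in all 17 alternatives. Leaving out 1 library at a time gave 5 to 10 called bile acid genes in high-fat, 8 to 11 in ketogenic and 0 to 1 in ketogenic against high-fat livers (the 1 without ketogenic replicate 5), and 934 to 2145, 1056 to 2201 and 1 to 315 called genes over all. The 315 came without ketogenic replicate 5, and the 934 and 1056 without control replicate 4. In ketogenic against high-fat livers the count over all genes of 9 became 15 with library totals, 26 with no filter, 168 with DESeq2, 1 with only the 2 diets in the fit and 15 with the replicate block, and the count of bile acid genes 1 with DESeq2. Without high-fat replicate 1 and ketogenic replicate 5 together, chosen after seeing the data, the counts over all genes were 3239, 1943 and 636 in the 3 comparisons and of bile acid genes 13, 11 and 3. The cause was not tested.

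The replicate numbers gave no sign of pairing the samples: 3 of 13 same-numbered pairs correlated above 0.1 (-0.404 to 0.418). The 52 other pairs across diets ran from -0.490 to 0.443. With 4 or 5 libraries per diet these correlations cannot exclude a pairing. With the replicate block 8, 8 and 0 bile acid genes and 1380, 1297 and 15 genes over all were called. No pair of genes tested for joint variation passed in any alternative. For Slc51a and Gpbar1 the counts were too few to compare diets.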
